A study of Rattus norvegicus with 8 samples.

Results

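This account covers the genes of the synaptic vesicle and of vesicle fusion in the rat brain 2 h after a transient stroke, with and without the angiotensin receptor blocker candesartan. Members were the array probe sets annotated with a single symbol made of Syt, Stx, Vamp, Snap, Syn, Cplx, Stxbp or Rab3 followed by a number and at most 1 letter, or with Sv2a to Sv2c, Syp, Nsf or Unc13a to Unc13c. This gave 57 genes on 82 probe sets, out of 10411 genes with a single symbol on the array, and each gene was represented by its probe set of highest mean signal. Read literally, the Rab3 clause takes in Rab31, Rab33b, Rab34, Rab35, Rab38 and Rab39a and not Rab3a to Rab3d, so those 4 Rab3 genes are described as relatives. Of the 57 genes 47 passed the filter on dim signals and were tested.

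The animals were male Wistar rats, 7 weeks old and weighing 160 to 200 g, injected 2 times a day for 5 days with 0.9% saline (vehicle) or with candesartan at 0.1 mg/kg, a blocker of the angiotensin AT1 receptor. They then had sham surgery or MCAO, in which the middle cerebral artery on the right side was closed for 90 min and reopened, and RNA was taken from part of that hemisphere 2 h after surgery. The 4 combinations of surgery and pretreatment had 2 Affymetrix RAE 230A arrays each, and each array held a pool of 2 rats. The protocol of the second MCAO candesartan array named neither drug nor dose, so its group rests on its sample source label.

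Transmitter release depends on SNARE proteins, which zip together across the gap between a vesicle and the plasma membrane and pull both membranes into fusion. Syntaxin 1 and SNAP-25 sit on the plasma membrane and synaptobrevin (VAMP) on the vesicle. Synaptotagmins sense calcium, complexins and Munc13 proteins control how ready the complex is to fire, and NSF takes spent complexes apart. Synapsins, synaptophysin and SV2 proteins belong to the vesicle itself, and most of these transcripts are made in neurons. In pooled whole-tissue RNA, fewer cells of a type and less RNA per cell cannot be told apart.

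The deposited signals had been scaled to a common trimmed mean, and median signals lay between 1257.7 and 1378.2. The second MCAO candesartan array stood apart from the rest, with a mean correlation of 0.951 with the other arrays against 0.970 to 0.973 elsewhere. Over the 47 tested members, the 2 MCAO candesartan pools differed by a median of 0.27 on the log2 scale, and the pools of the remaining groups by 0.11 to 0.15. The leading results that rest on the MCAO candesartan arrays are therefore given below with and without each of them.

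No tested member passed the threshold in any of the 6 comparisons made. In limma's test with Benjamini-Hochberg adjustment over 10310 probe sets, 0 of 47 members had an adjusted p under 0.05 for MCAO minus sham in vehicle rats, where 0.262% of all probe sets did. The same count of 0 of 47 was found for MCAO minus sham in candesartan rats (0.242% of all probe sets), candesartan minus vehicle after MCAO (0.0679%), candesartan minus vehicle after sham surgery (0%), the difference between the MCAO effects with and without drug (the interaction, 0.0194%) and MCAO minus sham over both pretreatments (0.417%). At an unadjusted p under 0.05 the members counted were 1 of 47 for MCAO with vehicle, where 7.04% of all probe sets passed, and 9 of 47 for MCAO with candesartan, against 12.4%. They were 8 of 47 for candesartan after MCAO (13.1% of all probe sets), 4 of 47 for candesartan after sham surgery (3.92%), 10 of 47 for the interaction (8.87%) and 4 of 47 for MCAO over both pretreatments (9.52%). Comparisons of 2 arrays with 2 allow no exact test of a single gene below p = 0.333, so their p-values rest on limma's pooled spread. For the interaction and for MCAO over both pretreatments the p-values were also taken from limma.

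The direction of the unadjusted passes differed between the comparisons. With candesartan, 8 members passed above and 1 below the sham arrays (5.5% and 6.92% of all probe sets), and in the interaction 8 were positive and 2 negative (3.5% and 5.36%). After MCAO, 6 members passed above and 2 below vehicle with the drug (5.43% and 7.68%), a comparison that shares its MCAO candesartan arrays with the first. After sham surgery 0 members passed above and 4 below vehicle with the drug (2.04% and 1.88%). In vehicle rats 0 passed above and 1 below sham after MCAO (4.53% and 2.51%), and over both pretreatments 3 passed above and 1 below (4.95% and 4.57%). At the adjusted threshold, the directions of all probe sets called were 0.213% higher and 0.0291% lower for MCAO with candesartan, and 0.0291% higher and 0.0388% lower for candesartan after MCAO. Over all 47 members the median difference was -0.03 for MCAO with vehicle and 0.02 for MCAO with candesartan on the log2(signal + offset) scale, against 0.01 and -0.03 over all probe sets. The interaction had a median of 0.13 over members and -0.05 over all probe sets.

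Counted by sign alone, 20 of 47 members lay above sham after MCAO with vehicle (52.5% of all probe sets) and 25 of 47 with candesartan (44.7%). The interaction was above 0 in 27 of 47 (43.1% of all probe sets), candesartan after MCAO in 24 of 47 (44.2%), candesartan after sham surgery in 18 of 47 (52.7%) and MCAO over both pretreatments in 27 of 47 (47.9%). Pools of MCAO and sham did not overlap for 7 members higher and 12 lower after MCAO with vehicle (24.6% and 20.6% of all probe sets), and for 13 higher and 7 lower with candesartan (16.9% and 21.4%). After MCAO, 13 members were higher and 7 lower with candesartan without overlap (18% and 23.8%), and after sham surgery 9 and 8 (18.9% and 14.9%). Unc13a is among the 13 higher members, and among the 25 and 24 above 0, for MCAO with candesartan and for candesartan after MCAO. It had to be, since only its readings in the 2 MCAO candesartan arrays passed the signal filter. The interaction count and the medians over the 47 members include it too, and draw on the same 2 readings. Over both pretreatments 0 members separated all 4 MCAO from all 4 sham arrays in either direction (2.83% and 2.39%).

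**Figure D1:**
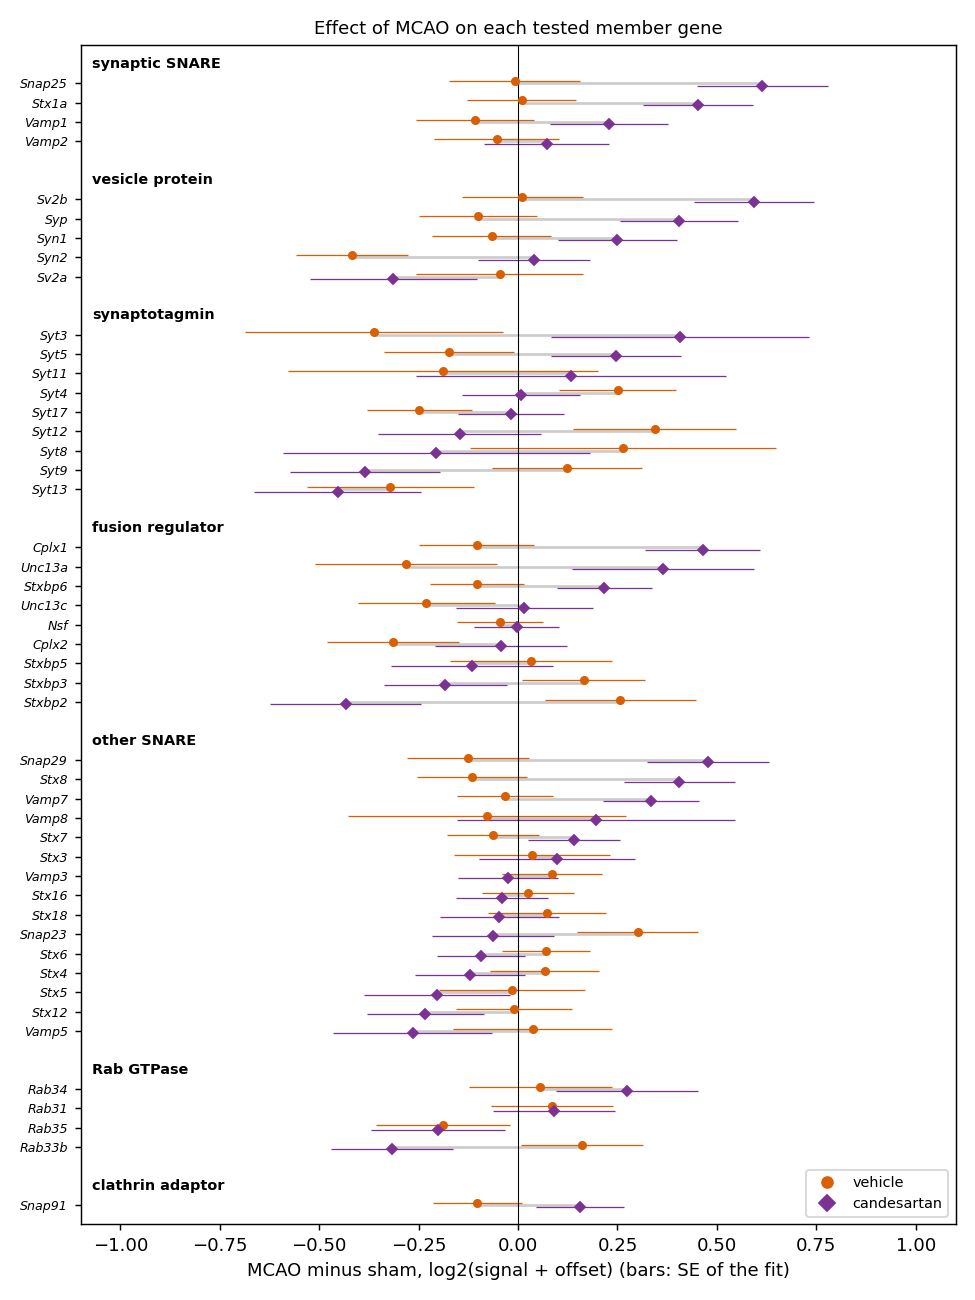
Difference between MCAO and sham for each of the 47 tested members, on the log2(signal + offset) scale, in vehicle rats (circles) and candesartan rats (diamonds), grouped by role, with the SE of the fit as bars. Snap25, Stx1a, Sv2b and Cplx1 lie between 0.45 and 0.61 with candesartan and between -0.10 and 0.01 with vehicle, while 0 of the 47 members passed the adjusted threshold in either. Unc13a is drawn too, although it passed the signal filter only through its MCAO candesartan readings.

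Both MCAO candesartan arrays lay above all 6 other arrays for 6 of 47 members, Snap25, Stx1a, Cplx1, Stx8, Vamp7 and Unc13a, where 7.06% of all probe sets did so. They lay below all 6 others for 1 member, Rab33b, where 8.61% of all probe sets did. Unc13a entered the test only through the 2 arrays where it was high, since its other 6 signals lay below the filter of 916.3, so it had to show this pattern. It is set apart from the other 5 genes here, all of which were singled out after their values were seen. RefSeq promoter windows of assembly GRCr8 were at hand for 4 of the 6 and are shown here because these members were highest in the same 2 arrays. Each is the run of 250 bases just before the annotated gene start, read 5′ to 3′ on the gene's strand, with capitals marking the GC box GGGCGG or its reverse complement CCGCCC, a common promoter motif.
Cplx1 (chr14:1328823-1329072, plus strand): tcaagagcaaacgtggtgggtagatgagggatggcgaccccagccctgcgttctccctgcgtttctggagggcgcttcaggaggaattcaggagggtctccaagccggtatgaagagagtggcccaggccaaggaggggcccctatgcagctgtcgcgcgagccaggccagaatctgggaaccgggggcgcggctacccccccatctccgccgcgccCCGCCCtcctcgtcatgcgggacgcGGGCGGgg
Stx1a (chr12:27306472-27306721, minus strand): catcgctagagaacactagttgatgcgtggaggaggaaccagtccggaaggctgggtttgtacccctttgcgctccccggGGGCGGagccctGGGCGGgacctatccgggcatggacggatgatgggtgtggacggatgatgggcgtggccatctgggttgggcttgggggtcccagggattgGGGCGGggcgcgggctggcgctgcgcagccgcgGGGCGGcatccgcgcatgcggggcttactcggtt
Stx8 (chr10:53154422-53154671, plus strand): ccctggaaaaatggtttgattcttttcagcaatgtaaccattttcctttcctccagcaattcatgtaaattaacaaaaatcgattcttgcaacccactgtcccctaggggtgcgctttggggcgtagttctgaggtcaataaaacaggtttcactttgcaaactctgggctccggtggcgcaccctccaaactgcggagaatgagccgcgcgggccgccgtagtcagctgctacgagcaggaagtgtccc
Unc13a (chr16:18415787-18416036, minus strand): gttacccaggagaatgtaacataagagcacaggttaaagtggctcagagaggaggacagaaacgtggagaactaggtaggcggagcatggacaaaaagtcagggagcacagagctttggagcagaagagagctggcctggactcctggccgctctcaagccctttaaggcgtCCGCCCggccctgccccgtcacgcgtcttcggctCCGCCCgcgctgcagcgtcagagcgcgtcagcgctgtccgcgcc
The GC box was found 4 times before Stx1a, 2 times before Cplx1 and before Unc13a, and not before Stx8, whose window holds 50.8% G and C against 61.2% to 68.4% in the other 3. Searched on both strands, it occurred in 29 of the 45 member windows at hand (64.4%) and in 32.4% of 27457 windows of all genes. The latter were not limited to genes on the array or matched for G and C content, so the 2 shares come from unlike sets. The cAMP response element TGACGTCA occurred in 2 member windows (4.44%, against 1.7% of all) and in 0 of the 4 shown. The CCAAT box, CCAAT, occurred in 17 member windows (37.8%, against 34.3% of all), and among those shown only before Stx1a. The 3 motifs do not share letters in a way that makes 1 match count as another.

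Among the synaptic SNAREs, Snap25 and Stx1a were highest in the MCAO candesartan arrays. Snap25 encodes the plasma membrane SNARE that lends a pair of helices to the complex. Its signal was 73519 and 55509 in the sham pools and 64107 and 62983 after MCAO with vehicle, and 62558 and 66725 in the sham pools and 86194 and 113989 after MCAO with candesartan. The first 6 values overlapped, and both MCAO candesartan pools stood above them. The MCAO effect on Snap25 was 0.61 ± 0.16 (log2, SE) with candesartan at an adjusted p = 0.221 by limma, and -0.01 ± 0.16 with vehicle at an adjusted p = 0.998. After quantile normalization the candesartan value was 0.35, and it was 0.82 without the first MCAO candesartan array, where it passed the threshold, and 0.41 without the second.

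Stx1a, the syntaxin of the synaptic plasma membrane, read 5703 and 5739 in the sham pools and 6542 and 5066 after MCAO with vehicle, and 5143 and 5812 in the sham pools and 7974 and 7273 after MCAO with candesartan. The 2 vehicle groups overlapped. Its MCAO effect was 0.45 ± 0.14 with candesartan (adjusted p = 0.274 by limma) and 0.01 ± 0.14 with vehicle. It was 0.45 after quantile normalization, and 0.39 and 0.52 without the first or the second MCAO candesartan array. A second Stx1a probe set gave 0.50 ± 0.17 with candesartan and 0.00 ± 0.17 with vehicle.

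The synaptic vesicle SNAREs Vamp1 and Vamp2 did not stand above the other arrays in MCAO candesartan. Vamp2, the main synaptobrevin of forebrain synapses, read 9952 and 11150 in the sham pools and 11706 and 8778 after MCAO with vehicle, and 10614 and 9551 in the sham pools and 9506 and 11823 after MCAO with candesartan. All 4 groups overlapped, with MCAO effects of -0.05 ± 0.16 and 0.07 ± 0.16, the latter 0.22 without the first MCAO candesartan array and -0.08 without the second. Vamp1, the related synaptobrevin, read 10418 and 9491 in the sham pools and 8914 and 9486 after MCAO with vehicle, and 9020 and 6635 in the sham pools and 9803 and 8500 after MCAO with candesartan. It was among the 4 members with the smallest p for candesartan after sham surgery, with a difference of -0.35 ± 0.15 (adjusted p = 1.00 by limma), or -0.56 without the first sham candesartan array and -0.14 without the second. The other 2 tested Vamp1 probe sets gave -0.33 ± 0.15 and 0.14 ± 0.25 in this comparison. For MCAO with vehicle the brightest probe set gave -0.11 ± 0.15, and the other 2 gave -0.39 ± 0.15 and 0.11 ± 0.25.

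**Figure D2:**
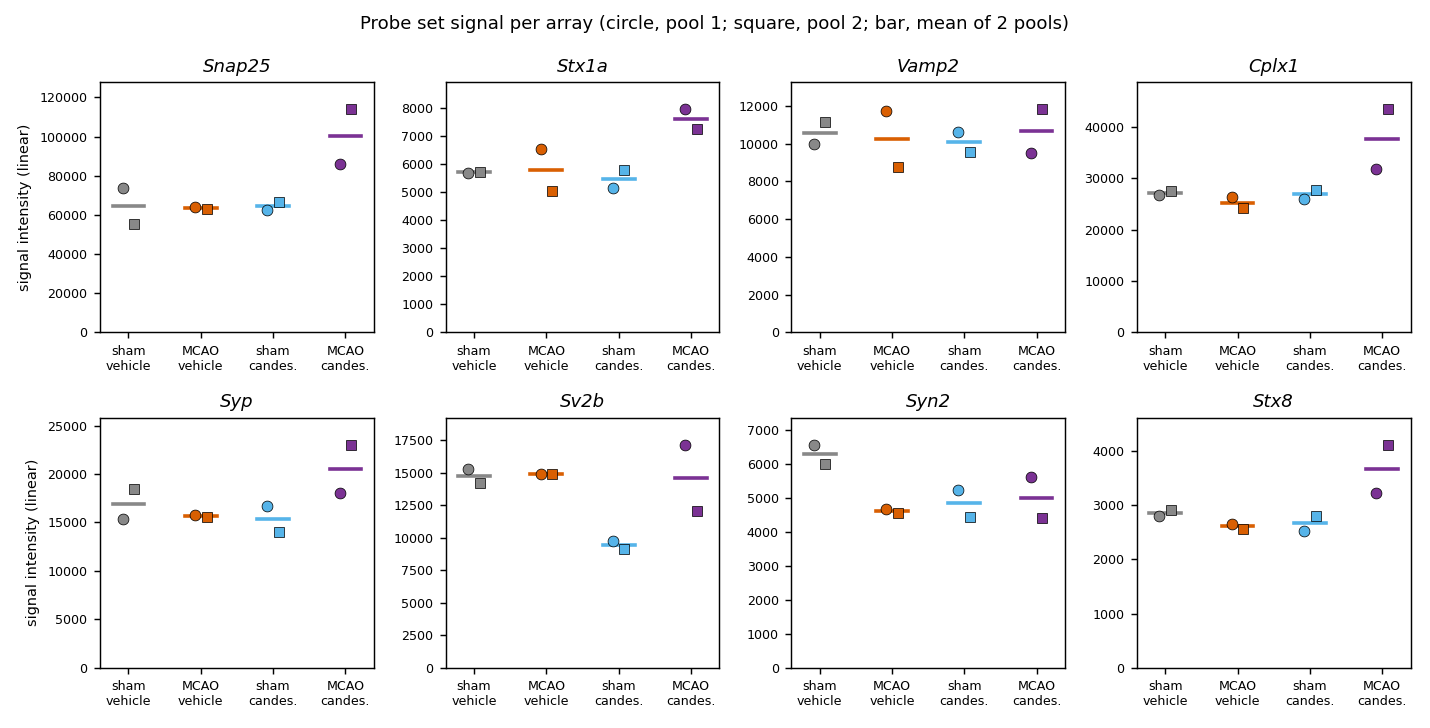
Signal intensity on a linear axis from 0 for 8 members in the 8 arrays, with circles for the first pool, squares for the second and a bar for the mean of each group. Snap25, Stx1a, Cplx1 and Stx8 have both MCAO candesartan pools above every other pool, Vamp2 overlaps in all groups, Sv2b is low in the sham candesartan pools, and Syn2 is highest in the sham vehicle pools.

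Of the vesicle proteins, synapsin 2 was lower after MCAO in vehicle rats and synaptic vesicle glycoprotein 2b was low in the sham candesartan arrays, and neither passed the adjusted threshold. Syn2, which tethers vesicles in the reserve pool, read 6565 and 6000 in the sham pools and 4658 and 4562 after MCAO with vehicle, and 5242 and 4431 in the sham pools and 5606 and 4398 after MCAO with candesartan. On this probe set both sham vehicle pools lay above the other 6. The MCAO effect on Syn2 with vehicle was -0.42 ± 0.14 (adjusted p = 0.503 by limma), the smallest p of the members in that comparison, and it was 0.04 ± 0.14 with candesartan. The value with candesartan was -0.12 without the first MCAO candesartan array and 0.20 without the second. The drug difference after sham surgery was -0.36 ± 0.14 (adjusted p = 1.00). A second Syn2 probe set read 5250 and 5164 in sham vehicle and 5802 and 5145 in MCAO candesartan, so sham vehicle was not highest there. It gave -0.34 ± 0.12 for MCAO with vehicle, 0.20 ± 0.12 for MCAO with candesartan and -0.14 ± 0.12 for the drug after sham surgery.

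Sv2b, a transporter-like protein of the vesicle membrane, read 15292 and 14233 in the sham pools and 14866 and 14859 after MCAO with vehicle, and 9724 and 9095 in the sham pools and 17152 and 12038 after MCAO with candesartan. The sham candesartan pools stood below the other 6. The difference between candesartan and vehicle after sham surgery was -0.63 ± 0.15 for Sv2b (adjusted p = 0.860 by limma), and the MCAO effect with candesartan was 0.59 ± 0.15 (adjusted p = 0.205), 2 comparisons that share the sham candesartan arrays. Without the second MCAO candesartan array the latter was 0.84 and passed the threshold, and without the first it was 0.34 and did not. A second Sv2b probe set read 5365 and 6171 in sham candesartan against 6349 and 6525 in sham vehicle, a difference of -0.15 ± 0.13, so the 2 probe sets differed in how far the sham candesartan arrays lay below sham vehicle. Its MCAO effect with candesartan was 0.39 ± 0.13. With the log2 values of all Sv2b probe sets averaged, 1 of them below the signal filter, the drug difference after sham surgery was -0.24 and the MCAO effect with candesartan 0.13.

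Syp, the abundant vesicle membrane protein synaptophysin, read 15376 and 18430 in the sham pools and 15816 and 15516 after MCAO with vehicle, and 16703 and 14062 in the sham pools and 18051 and 23046 after MCAO with candesartan. The first MCAO candesartan pool lay within the range of the sham vehicle pools and the second above all others. Its MCAO effect was 0.40 ± 0.15 with candesartan (adjusted p = 0.330 by limma), and 0.58 without the first MCAO candesartan array, where it passed the threshold, against 0.23 without the second. It was 0.28 after quantile normalization. Syn1, the most studied synapsin, had effects of 0.25 ± 0.15 with candesartan (0.29 without the first MCAO candesartan array, 0.21 without the second) and -0.07 ± 0.15 with vehicle. Sv2a, the target of the drug levetiracetam, read 3514 in the second MCAO candesartan array and 5459 to 7276 in the other 7, and its MCAO effect with candesartan was -0.31 ± 0.21 (adjusted p = 0.557), or 0.02 without that array and -0.65 without the first.

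Of the synaptotagmins 9 were tested, and their MCAO effects had a median of -0.17 with vehicle and -0.02 with candesartan. Syt13, a family member without the usual calcium-binding residues, read 1806 and 2503 in the sham pools and 1539 and 1728 after MCAO with vehicle, and 1719 and 1908 in the sham pools and 918 and 1599 after MCAO with candesartan. The MCAO pools lay below the sham pools within each pretreatment, and the effect over both was -0.39 ± 0.15 (adjusted p = 0.426 by limma), or -0.23 without the first MCAO candesartan array and -0.54 without the second. Syt4, which is known to be induced by neuronal activity, read 9723 and 9013 in the sham pools and 11378 and 11034 after MCAO with vehicle, and 8080 and 10554 in the sham pools and 10338 and 8349 after MCAO with candesartan. Its effect was 0.25 ± 0.15 with vehicle (adjusted p = 0.792) and 0.01 ± 0.15 with candesartan, the latter -0.14 and 0.16 without the first or the second MCAO candesartan array. A second Syt4 probe set ordered the pretreatments the other way, with 0.07 ± 0.12 and 0.40 ± 0.12. Syt17 was among the 4 members with the smallest p in vehicle rats, at -0.25 ± 0.13 (adjusted p = 0.749), or -0.13 without the first sham vehicle array and -0.36 without the second.

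Among the regulators of fusion, complexin 1 gave the clearest separation. Cplx1, which clamps and then promotes the assembled SNARE complex, read 26659 and 27450 in the sham pools and 26233 and 24104 after MCAO with vehicle, and 26009 and 27674 in the sham pools and 31802 and 43420 after MCAO with candesartan. The 6 other arrays lay within 24104 to 27674. The MCAO effect was 0.46 ± 0.14 with candesartan (adjusted p = 0.277 by limma) and -0.10 ± 0.14 with vehicle, and the interaction of 0.57 ± 0.20 had the smallest p of the members (adjusted p = 0.537). With candesartan it was 0.28 after quantile normalization, 0.69 without the first MCAO candesartan array, where it passed the threshold, and 0.24 without the second. The interaction was 0.34 after quantile normalization, 0.79 without the first MCAO candesartan array and 0.35 without the second. A second Cplx1 probe set gave 0.24 ± 0.25. Cplx2, its close relative, had -0.31 ± 0.17 with vehicle (adjusted p = 0.748) and -0.04 ± 0.17 with candesartan, the latter -0.24 and 0.16 without the first or the second MCAO candesartan array.

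Unc13a, the vesicle priming factor Munc13-1, was dim, with 973 and 996 in MCAO candesartan against 440 to 848 in the other 6 arrays. As these 2 readings alone took it past the filter, its test is not given. Nsf, the ATPase that disassembles SNARE complexes, read 21889 to 23987 over all 8 arrays on its brightest probe set, with effects of -0.04 ± 0.11 and -0.0035 ± 0.11. Another Nsf probe set read 18784 and 24469 in MCAO candesartan against 14191 to 17904 in the other 6, with an effect of 0.39 ± 0.13 with candesartan and -0.23 ± 0.13 with vehicle. The remaining tested Nsf probe set gave 0.10 ± 0.11 with candesartan and -0.23 ± 0.11 with vehicle. For candesartan minus vehicle after MCAO, the brightest probe set gave -0.03 ± 0.11 and these others 0.54 ± 0.13 and 0.32 ± 0.11. Stxbp2, the Munc18 protein of non-neuronal secretion, was the 1 member with an unadjusted pass below sham with candesartan, at -0.43 ± 0.19 (adjusted p = 0.387), and was picked out once its values were known. The value was -0.16 without the first MCAO candesartan array and -0.71 without the second.

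**Figure D3:**
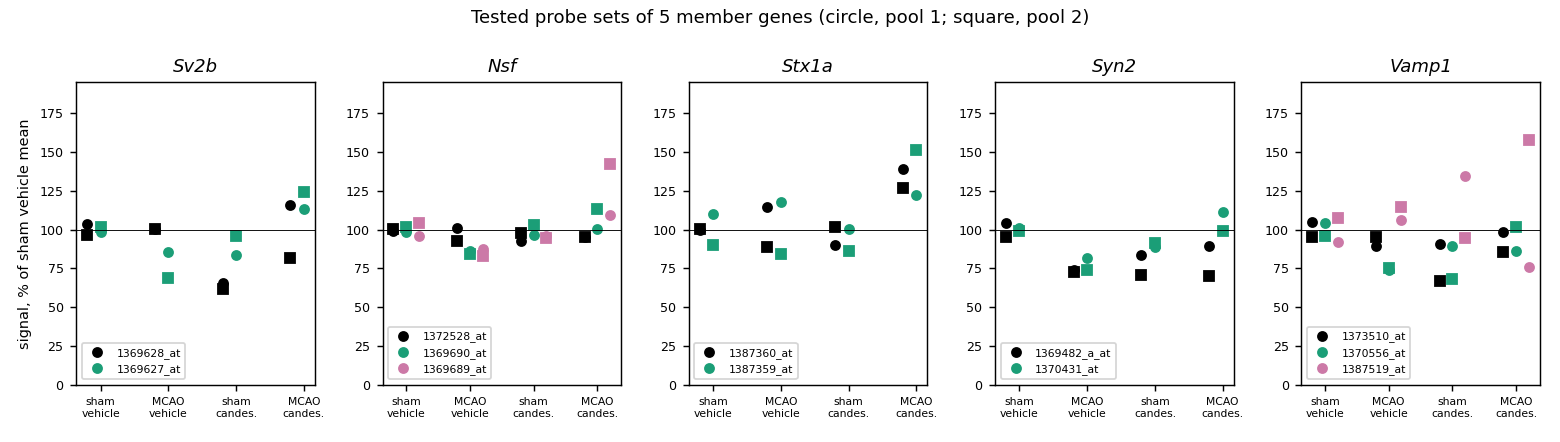
Signal of each tested probe set of 5 members as a percentage of its own sham vehicle mean, in the 8 arrays (circles, first pool; squares, second pool), with 1 colour per probe set. The Stx1a probe sets lie above 100% in all 4 MCAO candesartan readings, while the brightest Nsf probe set stays level where another is high, and the low sham candesartan readings of Sv2b belong mainly to its brightest probe set.

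How far probe sets of 1 gene differed was counted for the 14 members with at least 2 tested probe sets. All probe sets of a gene had differences of the same sign in 10 of 14 genes for MCAO with vehicle, 7 for MCAO with candesartan, 5 for candesartan after MCAO and 8 for the interaction.

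The other SNAREs act in the Golgi, endosomes, lysosomes and general secretion, and 15 were tested. Their median MCAO effects were 0.03 with vehicle and -0.04 with candesartan. Stx8, an endosomal syntaxin, read 2805 and 2905 in the sham pools and 2652 and 2561 after MCAO with vehicle, and 2517 and 2807 in the sham pools and 3218 and 4116 after MCAO with candesartan. Both MCAO candesartan pools were above the rest, with a difference from MCAO vehicle of 0.43 ± 0.14 (adjusted p = 0.270 by limma), or 0.59 without the first of them, where it passed, and 0.27 without the second. Snap29, a SNARE of autophagy and endosomal fusion, read 2460 and 2505 in the sham pools and 2307 and 2183 after MCAO with vehicle, and 1827 and 1932 in the sham pools and 2326 and 3263 after MCAO with candesartan. Its interaction was 0.60 ± 0.22 (adjusted p = 0.537), with the sham candesartan pools the lowest and the second MCAO candesartan pool the highest. It was 0.82 without the first MCAO candesartan array, where it passed, 0.39 without the second, and 0.26 with the log2 values averaged with those of 2 Snap29 probe sets below the signal filter. Vamp7, a VAMP of late endosomes and lysosomes singled out above, read 5078 and 5382 in the sham pools and 4998 and 5213 after MCAO with vehicle, and 4716 and 5319 in the sham pools and 6022 and 6817 after MCAO with candesartan. Its MCAO effect with candesartan was 0.33 ± 0.12 (adjusted p = 0.327 by limma), or 0.42 and 0.25 without the first or the second of these arrays. Snap23, the SNAP-25 relative found outside neurons, read 1704 and 1597 in MCAO vehicle against 1156 to 1421 in the other 6 arrays. Its MCAO effect was 0.30 ± 0.15 with vehicle (adjusted p = 0.740) and -0.06 ± 0.15 with candesartan. A second Snap23 probe set gave 0.21 ± 0.18 and 0.38 ± 0.18, so the direction with candesartan differed between the probe sets.

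Rab31, Rab33b, Rab34 and Rab35, small GTPases of membrane traffic, had MCAO effects of -0.19 to 0.16 with vehicle and -0.32 to 0.27 with candesartan. Rab33b, at -0.32 with candesartan, was -0.30 and -0.34 without the first or the second MCAO candesartan array, while Rab34, at 0.27, was 0.57 and -0.02. A second Rab34 probe set gave -0.40 ± 0.20 with candesartan, the opposite direction, and -0.07 ± 0.20 with vehicle. Rab3a, the GTPase that marks synaptic vesicles before release, read 15238 to 21257 over the 8 arrays, with overlapping groups and effects of -0.09 ± 0.15 and 0.21 ± 0.15. Snap91, the clathrin adaptor AP180 that retrieves vesicle membrane, had -0.10 ± 0.11 and 0.16 ± 0.11. The 10 members below the signal filter were Rab38, Rab39a, Stx17, Sv2c, Syn3, Syt2, Syt6, Syt7, Syt10 and Unc13b, whose signals ran from 11 for Rab39a to 911 for Rab38, and they were not tested.

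With MCAO candesartan array 1 left out, 6 of 47 members passed for MCAO with candesartan (Snap25, Cplx1, Snap29, Stx8, Syp and Rab34), 7 for candesartan after MCAO (the same without Snap29, plus Sv2a and Stxbp5, both lower with the drug), 3 for the interaction and 2 for MCAO over both pretreatments. All probe sets called then numbered 835, 986, 296 and 389, and the array that stood apart was then the only one of its group, assumed to vary like the others. With array 2 left out, Sv2b alone passed for MCAO with candesartan and for MCAO over both pretreatments. Under the other alternatives, leaving out the remaining arrays included, 0 of 47 members passed in every comparison run.

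Bright probe sets as a whole were higher in the second MCAO candesartan array, and Snap25, Cplx1 and Syp were among the bright members, while Stx1a and Stx8 were not. Among the 1031 probe sets with a mean signal above 9602, the 90th percentile of those tested, the median difference from sham candesartan was 0.05 in the first MCAO candesartan array and 0.15 in the second. The 10 members in that range had medians of 0.19 and 0.27. After quantile normalization these medians were -0.0003 and 0.0030 for the 1031 probe sets and 0.12 and 0.17 for the 10 members. The MCAO effect with vehicle had a median of -0.06 before normalization, both in the 1031 probe sets and in the 10 members. Below the median signal the 16 members had medians of 0.02 and -0.08 in the first and second MCAO candesartan arrays before normalization. All 5155 probe sets there had -0.06 in each. After quantile normalization the 16 members had 0.09 and -0.04. They include Unc13a, which passed the signal filter only through these arrays. The part of this brightness shift in the values of Snap25, Cplx1 and Syp was measured only through the quantile normalization given and through cyclic loess. With cyclic loess their MCAO effects with candesartan were 0.38, 0.33 and 0.32.

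**Figure D4:**
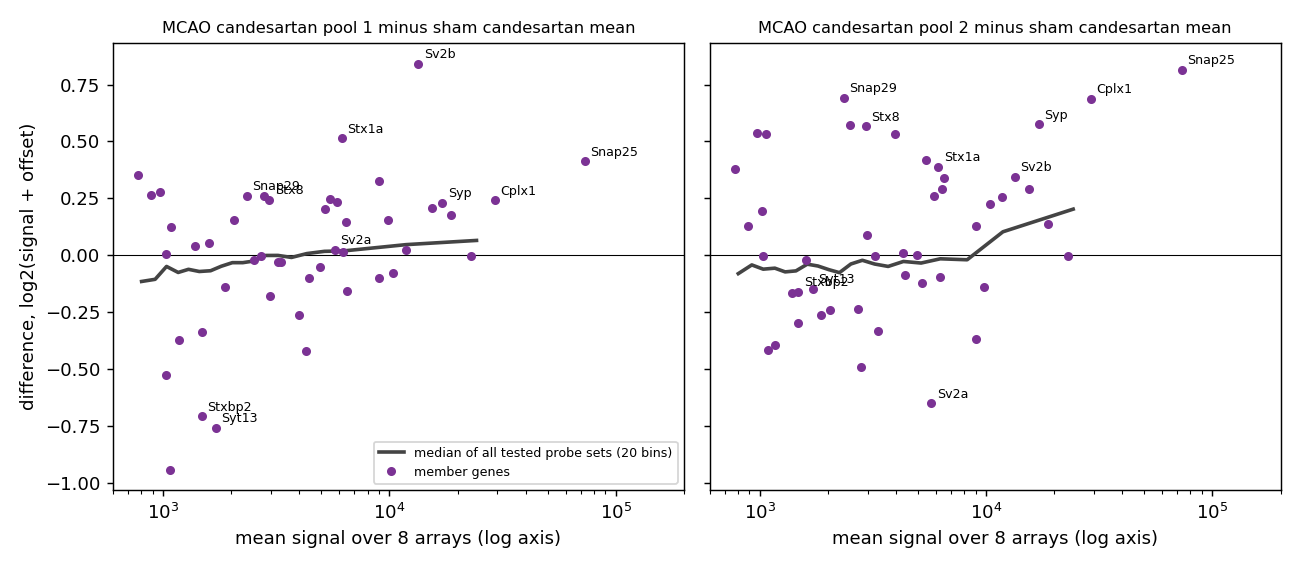
Difference of each MCAO candesartan array from the sham candesartan mean on the log2(signal + offset) scale, against mean signal over the 8 arrays on a log axis, for the 47 members (points) and as the median of all tested probe sets in 20 bins (line). The line climbs for bright probe sets in the second array, and Snap25, Cplx1 and Syp lie above its highest point in both arrays.

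Other genes of the vesicle cycle, listed by function, had 0 members called by limma in all 6 comparisons. At an unadjusted p under 0.05, MCAO with candesartan had 5 of 30 endocytosis genes above and 1 below sham, 7 and 2 of 29 for vesicle membrane and loading, and 0 and 1 of 27 for the active zone, where 5.5% of all probe sets were above and 6.92% below. For vesicle endocytosis and recycling (dynamins, endophilins, clathrin, adaptor AP-2), 22 of 30 tested genes were below sham after MCAO with vehicle, with a median of -0.08, where 52.5% of all probe sets were above. With candesartan 19 of 30 were above, with a median of 0.13, where 44.7% of all probe sets were above. The interaction had a median of 0.26, with 23 of 30 above 0, where 43.1% of all probe sets were. Genes of the active zone and docking (27 tested) had median MCAO effects of -0.04 with vehicle and 0.03 with candesartan. Those of the vesicle membrane and transmitter loading (29 tested) had -0.04 and -0.03. The 27 include Rab3d, which passed the signal filter only through its MCAO candesartan readings.

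Markers of whole cell types also differed between these arrays. For neuron markers, none of them a member, 18 of 20 were measured and Dcx was below the filter in every array. With vehicle their summed signal was 301790 to 314769 in sham pools and 285981 to 311060 after MCAO, and with candesartan 301554 to 303597 and 338209 to 403289. The 17 tested neuron markers had a median MCAO effect of -0.10 with vehicle and 0.10 with candesartan, with 13 of 17 above 0 (44.7% of all probe sets), 5 at an unadjusted p under 0.05 (12.4%) and 0 called by limma. Their interaction had a median of 0.20, against 0.26 for the endocytosis genes, with 13 of 17 above 0 (43.1% of all probe sets). The marker lists, too, were not matched to all probe sets for brightness. Astrocyte markers, 14 of 15 measured, summed to 302123 to 310981 in sham pools and 256559 to 265520 after MCAO with vehicle, and with candesartan to 290488 to 309020 in sham pools and to 253223 and 384117 after MCAO. All 14 were below sham after MCAO with vehicle, where 52.5% of all probe sets were above, and 2 had an unadjusted p under 0.05 (7.04% of all probe sets). With candesartan 9 of 14 were below and 5 had an unadjusted p under 0.05 (12.4%), and 0 were called by limma in either. Oligodendrocyte markers, 11 of 15 measured, summed to 288900 to 291114 and 284980 to 316497 with vehicle and to 301186 to 313446 and 308797 to 398857 with candesartan, sham first. Microglia and macrophage markers, 14 of 15 measured with Cd68, Itgam and Ptprc below the filter, summed to 32142 to 33147, 28948 to 29215, 30400 to 36114 and 28967 to 29931 in the same order. Gene by gene, the 11 oligodendrocyte markers did not follow their sums. Their median MCAO effect was 0.09 with vehicle, 8 of 11 above 0 (52.5% of all probe sets). With candesartan it was -0.12, with 8 of 11 below 0, where 44.7% of all probe sets were above. In the second MCAO candesartan array, which had the sum of 398857, their median difference from the sham vehicle mean was -0.24. The part of these shifts in the members' values was not tested.

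**Figure D5:**
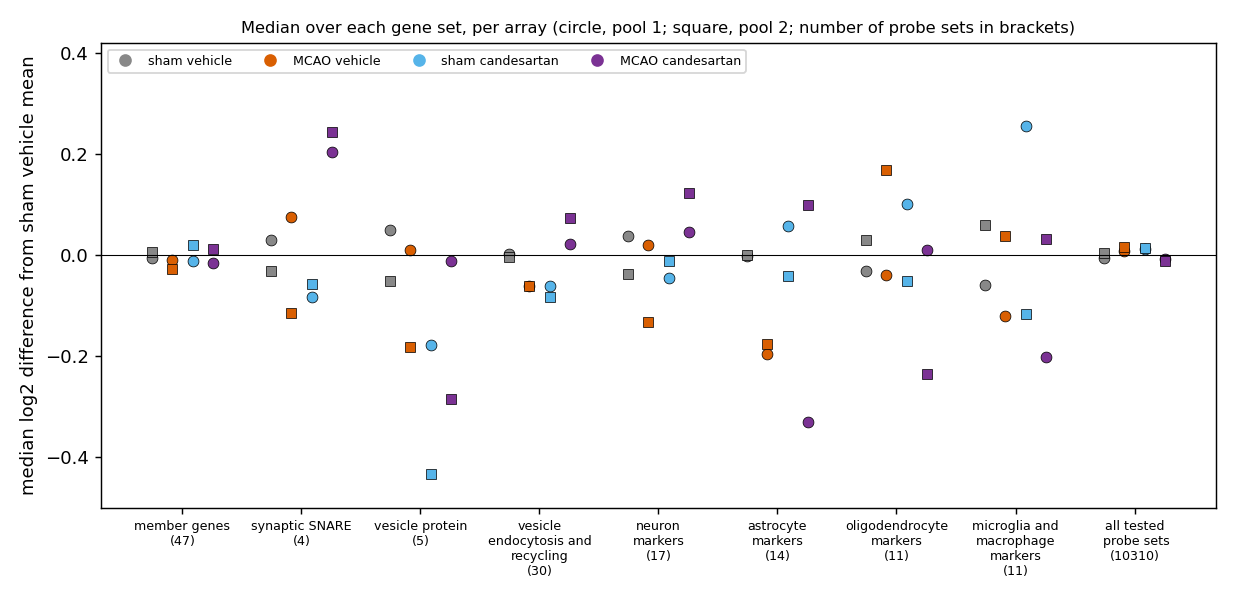
Median over each gene set of the log2(signal + offset) difference from the sham vehicle mean, for every array (circles, first pool; squares, second pool; colours, groups), with the number of probe sets in brackets. The 4 synaptic SNAREs are at 0.20 and 0.24 in MCAO candesartan, the whole member list stays within -0.03 to 0.02, and astrocyte markers are at -0.33 and 0.10 in the 2 MCAO candesartan arrays.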

How the data were processed

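The deposited table held, for every probe set, a signal intensity on a linear scale as the authors computed it; the submitters' processing notes list GCOS, Affymetrix's software, with settings not given in the sources used here. As an offset, the 20th percentile of the table, 369.9, was added before taking log2, which understates differences of dim genes. Of 15923 probe sets, 57 controls were left out and 10310 had a signal above 916.3, the 40th percentile, on at least 2 arrays. A single limma model with 4 group means took in all 8 arrays (limma 3.58.1, R 4.3.3; eBayes used a trended prior, and 4 residual degrees of freedom remained); it was tested on simulated data. Calls needed a Benjamini-Hochberg adjusted p under 0.05 over all probe sets of a comparison. Genes came from the platform annotation, and the 57 members matched RefSeq's gene table (GRCr8). Members and gene lists were chosen with earlier results of these data known. Named genes were the 4 members with the smallest p in each comparison, a fixed set of known synaptic genes, and others marked in the text. P-values measure the spread between pools of 2 rats, and the number of arrays limits precision. Alternatives covered scaling, offset, filter, variance model, groups fitted, a pool-number block, probe set choice, the Rab3 reading and each array left out.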

Additional observations from a re-analysis of the deposited data

How the results depend on the processing

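The median over members moved by more than the spread between pools (SD 0.02) in several settings. With arrays centred on their medians it was -0.10 for MCAO with vehicle, 0.0768 for MCAO with candesartan, 0.12 for candesartan after MCAO, -0.10 for candesartan after sham surgery and 0.25 for the interaction. With quantile normalization it was -0.0252 for candesartan after sham surgery and 0.10 for the interaction, and with cyclic loess 0.10 for the interaction. Without the filter (57 members) it was -0.0101 for candesartan after MCAO and 0.0414 for the interaction, and with a filter at the 60th percentile (35 members) 0.0720 for MCAO with candesartan, 0.0805 for candesartan after MCAO and 0.22 for the interaction. Averaging all probe sets of a gene, dim ones included, gave 0.0987, 0.0697 and 0.19 for the same 3 comparisons, and with Rab3a to Rab3d as members the last 2 were 0.0713 and 0.22. Of these relatives, Rab3d passed the signal filter only through its MCAO candesartan readings. Leaving out 1 array gave -0.0330 to -0.0101 for MCAO with vehicle, -0.0015 to 0.0874 with candesartan, -0.0139 to 0.0829 for candesartan after MCAO, -0.0625 to 0.0213 after sham surgery, 0.0039 to 0.21 for the interaction and -0.0159 to 0.0428 for MCAO over both; members called ranged from 0 to 6, 0 to 7, 0 to 3 and 0 to 2 for MCAO with candesartan, candesartan after MCAO, the interaction and MCAO over both. The cause was not tested. Averaged over probe sets, Snap29 after sham surgery turned to 0.0213 and Sv2b for MCAO over both to -0.0065. Over all alternatives the probe sets called ranged from 7 to 93 (27 as reported) for MCAO with vehicle, 5 to 835 (25) with candesartan, 0 to 986 (7) for candesartan after MCAO, 0 to 296 (2) for the interaction and 21 to 389 (43) for MCAO over both. Pool numbers did not pair the arrays: correlations of pool differences between groups were -0.0951 to 0.137. With the pool number as a replicate block the member medians and the 0 members called were the same, and all probe sets called were 4 instead of 7 for candesartan after MCAO and 0 instead of 2 for the interaction.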

Other observations

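Some lesser probe sets of members gave smaller p-values in the interaction than the probe sets of highest signal. They and Rab3d were picked out once their values were known. The second Sv2b probe set had an interaction of 0.74 ± 0.19 (unadjusted p = 0.00238, adjusted p = 0.446 by limma), with 5488 and 4441 in MCAO vehicle below the other 6 arrays except 1 sham candesartan reading of 5365, and 7287 and 7987 in MCAO candesartan above all others. The second Syn2 probe set had 0.54 ± 0.17 in the same comparison (adjusted p = 0.468 by limma), both MCAO vehicle pools, at 4264 and 3847, lying below the other 6. The second Vamp1 probe set had 0.64 ± 0.21 (adjusted p = 0.495 by limma), while the remaining tested Vamp1 probe set had -0.13 ± 0.35. The Nsf probe set that was high in MCAO candesartan had 0.61 ± 0.19 (adjusted p = 0.468 by limma). The brightest Nsf probe set had 0.04 ± 0.15 and the remaining 1 had 0.32 ± 0.16. Rab3d, a Rab3 relative of secretory granules, read 1079 and 958 in MCAO candesartan, 677 and 238 in MCAO vehicle and 601 to 852 in the sham arrays. It passed the signal filter only through the 2 MCAO candesartan readings, so its test is not given. None of the probe sets given here with a test passed the threshold.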
